A study of Mus musculus with 19 samples.

Results

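Levels of 4 genes were followed across 19 isolated, reperfused mouse hearts: Nr1d1 and Nr1d2, which encode the nuclear receptors REV-ERB alpha and REV-ERB beta, and Thra and Med1, which lie near Nr1d1. They were chosen by name from the 22180 genes that the array platform's annotation gives a probe set of their own. Each of the 4 had exactly 1 such probe set, so no choice between probe sets was needed. The genes were picked with earlier results of these hearts known, so their own differences between groups are given as descriptions, without a test.

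REV-ERB alpha and REV-ERB beta are receptors for heme that bind DNA and recruit a corepressor complex that holds HDAC3, and in the circadian clock they repress Arntl, Clock and other genes. Both genes are themselves driven by the CLOCK-BMAL1 activator through E-boxes, which makes them part of a feedback loop that also runs in heart muscle. Thra encodes thyroid hormone receptor alpha, the main thyroid hormone receptor of the heart, and a splice form that does not bind the hormone. It runs tail to tail with Nr1d1 on opposite strands. Med1 encodes the Mediator subunit through which many nuclear receptors, thyroid hormone receptors among them, contact RNA polymerase II.

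Hearts of mice lacking Rev-erb alpha were taken at ZT12 (KO ZT12, n = 5), and hearts of wild-type mice at ZT12 (WT ZT12, n = 7) and at ZT0 (WT ZT0, n = 7). ZT0 is the time of lights on and ZT12 the time of lights off. The wild-type mice were C57Bl6J, and the labels name neither a strain nor an allele for the knockout mice, and give no age. All 19 hearts were isolated and fed with buffer through the aorta (Langendorff perfusion). Each was stabilised for 20 min, deprived of flow for 20 min and reperfused for 20 min, so every group carries the same ischemia. Values are log2 intensities, made from 300 ng of RNA per heart, and 1 unit is a doubling; the number of arrays limits their precision.

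Array medians lay between 3.25 and 3.32, and correlations between arrays between 0.972 and 0.985. Cardiomyocyte markers averaged 11.19 to 11.25 in KO ZT12 hearts, 11.12 to 11.20 in WT ZT12 hearts and 11.16 to 11.21 in WT ZT0 hearts. Atrial markers set 4 arrays apart, 3 of KO ZT12 hearts and 1 of a WT ZT12 heart: the mean of the 9 marker genes was 5.29 to 5.73 there and 6.82 to 8.74 in the other 15 hearts. By group the atrial mean ran from 5.29 to 8.57 in KO ZT12 hearts, from 5.65 to 8.59 in WT ZT12 hearts and from 7.53 to 8.74 in WT ZT0 hearts. The list median was -0.85 for KO ZT12 minus WT ZT12 and -0.65 for WT ZT12 minus WT ZT0. Of the 9 genes 0 were called (adjusted p under 0.05 in limma) in either comparison. Endothelial markers averaged 7.54 to 7.82 in KO ZT12 hearts, 7.60 to 7.85 in WT ZT12 hearts and 7.76 to 7.94 in WT ZT0 hearts, and 1 of the 9 genes was called, lower in WT ZT12 than in WT ZT0 (list median -0.10). Adipocyte markers averaged 5.54 to 6.65 in KO ZT12, 5.24 to 6.52 in WT ZT12 and 5.42 to 5.98 in WT ZT0 hearts, and 1 of the 5 genes was called, higher in KO ZT12 than in WT ZT12 (list median 0.23). The part of atrial tissue, endothelial cells and adipose tissue in the results below was not tested.

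The start regions of both Rev-erb genes are shown because the clock acts on them directly. RefSeq promoters of GRCm38.p6, which run from 250 bases before to 50 bases after the start of transcription, were matched for 3 of the 4 genes. The Nr1d1 promoter lies at chr11:98775328-98775627 on the minus strand. In it the capitals mark the only match to the E'-box CACGTT, found here as its reverse complement AACGTG with its leading base at -28 from the start. The Nr1d2 promoter lies at chr14:18239057-18239356 on the minus strand. In it the capitals mark the only match to AGGTCA, the core that REV-ERB, ROR and thyroid hormone receptors share, with its leading base at -77.
Nr1d1: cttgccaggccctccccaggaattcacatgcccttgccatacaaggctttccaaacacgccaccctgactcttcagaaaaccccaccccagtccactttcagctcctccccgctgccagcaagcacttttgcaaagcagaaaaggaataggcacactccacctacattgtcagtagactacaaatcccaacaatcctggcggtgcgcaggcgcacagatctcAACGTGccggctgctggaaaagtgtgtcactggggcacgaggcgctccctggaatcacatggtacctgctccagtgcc
Nr1d2: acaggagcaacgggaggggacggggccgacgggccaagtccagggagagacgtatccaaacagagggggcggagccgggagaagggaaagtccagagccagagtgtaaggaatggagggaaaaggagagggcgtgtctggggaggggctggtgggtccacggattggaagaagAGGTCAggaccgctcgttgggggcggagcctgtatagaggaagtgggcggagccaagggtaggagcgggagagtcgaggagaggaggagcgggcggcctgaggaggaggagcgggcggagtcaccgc
Both strands were searched for 4 motifs, which do not overlap here. The E'-box CACGTT is held by 4.68% of 32851 promoters of this length and the core AGGTCA by 16.3%. Neither sequence holds the E-box CACGTG, present in 7.15% of promoters, or the D-box TTATGNAA, present in 3.38%. A match describes letters only, and elements outside these windows were not searched.

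Nr1d1 signal was present in the knockout hearts and lay between the wild-type groups. Its levels were 6.35, 6.40, 6.30, 6.36 and 6.51 in the KO ZT12 hearts. They ran from 6.46 over a median of 6.64 to 7.28 in WT ZT12 hearts, and from 5.76 over 6.12 to 6.67 in WT ZT0 hearts. Of the 5 KO ZT12 hearts 4 lay below every WT ZT12 heart and 1 lay within their range, while all 5 lay within the range of the WT ZT0 hearts. Means were 6.38 ± 0.077 (SD, n = 5) in KO ZT12 hearts, 6.74 ± 0.30 (SD, n = 7) in WT ZT12 hearts and 6.15 ± 0.31 (SD, n = 7) in WT ZT0 hearts. KO ZT12 minus WT ZT12 was -0.35 on the log2 scale (SE 0.15), or 1.28-fold lower in the knockout. WT ZT12 minus WT ZT0 was 0.59 (SE 0.13), or 1.50-fold higher at ZT12, with 3 of 7 WT ZT12 hearts above every WT ZT0 heart. The array's files used here do not say which part of Nr1d1 the probes read or which part the knockout lacks, so this probe set does not check the genotype label. In bulk tissue, fewer cells of a type and less RNA per cell cannot be told apart.

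Nr1d2, the paralog, differed between the times of day and much less between the genotypes. It stood at 8.05, 8.11, 7.80, 7.92 and 8.18 in KO ZT12 hearts. The WT ZT12 hearts ran from 7.72 over a median of 7.94 to 8.04, and the WT ZT0 hearts from 6.30 over 6.54 to 6.88. All 12 hearts taken at ZT12, of either genotype, lay above all 7 taken at ZT0. Group means were 8.01 ± 0.15 (SD, n = 5) in KO ZT12, 7.90 ± 0.11 (SD, n = 7) in WT ZT12 and 6.58 ± 0.20 (SD, n = 7) in WT ZT0. WT ZT12 minus WT ZT0 was 1.32 (SE 0.087), or 2.50-fold higher, the difference of rank 10 in size among the 22180 genes. KO ZT12 minus WT ZT12 was 0.11 (SE 0.095), or 1.08-fold, of rank 8714; 3 KO ZT12 hearts lay above every WT ZT12 heart and 2 lay within their range. Without the 4 arrays low in atrial markers that difference was -0.0042 (SE 0.13), so its sign depended on those arrays. Only 2 KO ZT12 hearts remain in that setting. KO ZT12 minus WT ZT0 was 1.43 (SE 0.095), or 2.70-fold.

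Thra was lowest in KO ZT12 hearts, intermediate in WT ZT12 hearts and highest in WT ZT0 hearts. The KO ZT12 hearts had 4.91, 5.09, 4.86, 4.74 and 4.55. In WT ZT12 hearts the levels ran from 5.01 over a median of 5.20 to 5.35, and in WT ZT0 hearts from 5.38 over 5.53 to 5.72. WT ZT12 and WT ZT0 hearts did not overlap, and 4 of the 5 KO ZT12 hearts lay below every WT ZT12 heart, with the remaining 1 inside their range. Means were 4.83 ± 0.20 (SD, n = 5) in KO ZT12 hearts, 5.20 ± 0.11 (SD, n = 7) in WT ZT12 hearts and 5.56 ± 0.11 (SD, n = 7) in WT ZT0 hearts. KO ZT12 minus WT ZT12 was -0.37 (SE 0.085), or 1.30-fold lower, and WT ZT12 minus WT ZT0 was -0.35 (SE 0.077), or 1.28-fold lower. These differences were of rank 552 and 493 in size. KO ZT12 minus WT ZT0, which joins the genotype and the time, was -0.73 (SE 0.085), or 1.65-fold lower, of rank 77. Thra and Nr1d1 overlap in the RefSeq table, and whether the Thra probes lie in the shared stretch, or in what the knockout removed, was not tested.

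Med1 was higher in the knockout hearts, while its difference between the times was smaller than its SE. It was 6.97, 7.12, 7.25, 7.07 and 7.28 in KO ZT12 hearts, all of which lay above every WT ZT12 heart. WT ZT12 hearts ran from 6.55 over a median of 6.76 to 6.95, and WT ZT0 hearts from 6.40 over 6.83 to 6.99, with all 7 WT ZT12 hearts inside the range of the WT ZT0 hearts. Means were 7.14 ± 0.13 (SD, n = 5) in KO ZT12, 6.75 ± 0.12 (SD, n = 7) in WT ZT12 and 6.76 ± 0.19 (SD, n = 7) in WT ZT0. KO ZT12 minus WT ZT12 was 0.39 (SE 0.091), or 1.31-fold higher, of rank 481, and WT ZT12 minus WT ZT0 was -0.014 (SE 0.083), of rank 20217. Against WT ZT0 hearts the knockout was higher by 0.38 (SE 0.091), with 4 hearts above every WT ZT0 heart and 1 inside their range.

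**Figure D1:**
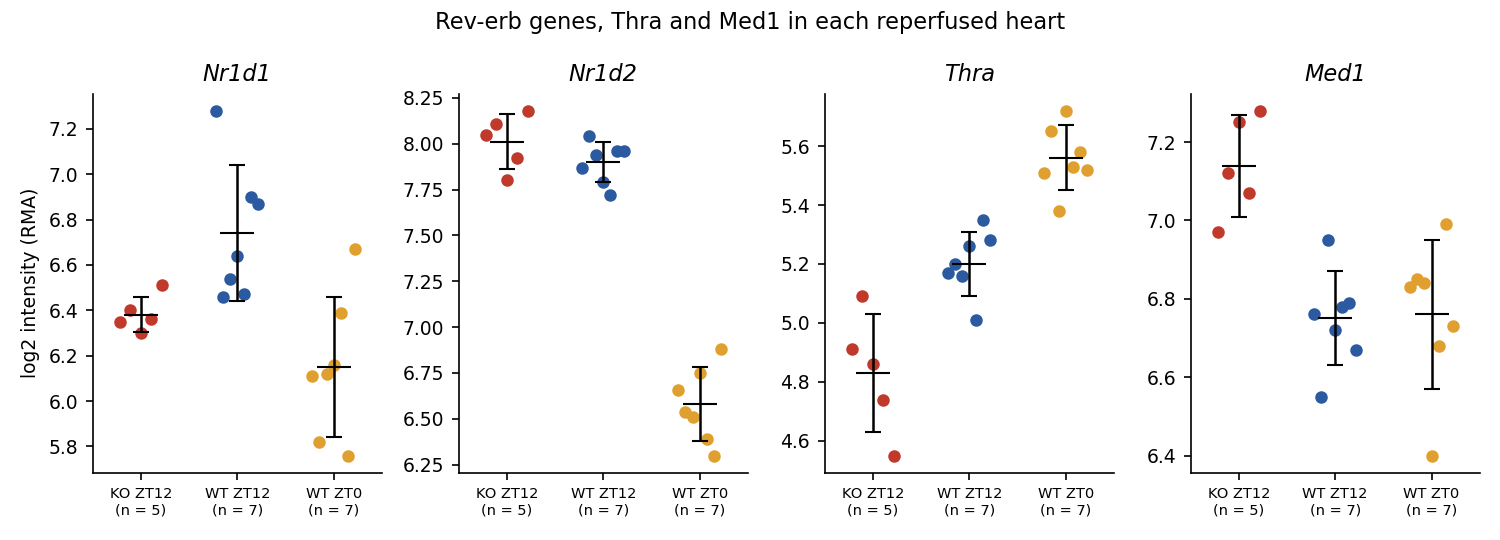
Log2 intensity of Nr1d1, Nr1d2, Thra and Med1 (vertical axes, 1 scale per gene) in KO ZT12, WT ZT12 and WT ZT0 hearts; points are hearts, the long bar is the group mean and the whiskers are SD. Nr1d2 hearts of both ZT12 groups lie above all WT ZT0 hearts, Thra is lowest in the knockout, and all 5 KO ZT12 hearts lie above the WT ZT12 hearts for Med1.

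Groups that do not overlap at all were thus seen for Nr1d2 and Thra between WT ZT12 and WT ZT0, where 0.902% of all genes have such groups. They were seen for Med1 between KO ZT12 and WT ZT12, where 1.40% do, and for Nr1d2 and Thra between KO ZT12 and WT ZT0, where 1.72% do. The WT ZT12 hearts serve in both of the main comparisons, so a heart that is high there raises one difference and lowers the other. Within groups, the deviations of the 4 genes from their group means had correlations of either sign over the 19 hearts. Pearson's r was 0.42 between Nr1d1 and Nr1d2, -0.027 between Nr1d1 and Thra, -0.21 between Nr1d1 and Med1, 0.12 between Nr1d2 and Thra, -0.39 between Nr1d2 and Med1 and -0.36 between Thra and Med1, each pair read on the same arrays.

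The KO ZT12 hearts low in atrial markers overlapped the other KO ZT12 hearts for Thra, Med1 and Nr1d2, but not for Nr1d1, where the 3 had 6.36 to 6.51 and the other 2 had 6.30 to 6.35. The 3 KO ZT12 hearts low in these markers had Thra at 4.55 to 5.09 and the other 2 had 4.86 to 4.91, and the WT ZT12 heart low in them had 5.01 against 5.16 to 5.35 in the other 6. For Med1 the 3 KO ZT12 hearts had 7.07 to 7.28 and the other 2 had 6.97 to 7.25. Without those 4 arrays KO ZT12 minus WT ZT12 was -0.45 (SE 0.22) for Nr1d1, -0.35 (SE 0.095) for Thra and 0.37 (SE 0.14) for Med1. With all arrays the differences of Nr1d1, Thra and Med1 were -0.35, -0.37 and 0.39. Only 2 KO ZT12 and 6 WT ZT12 hearts remain without the 4 arrays, and the part of atrial tissue in these differences was not tested.

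**Figure D2:**
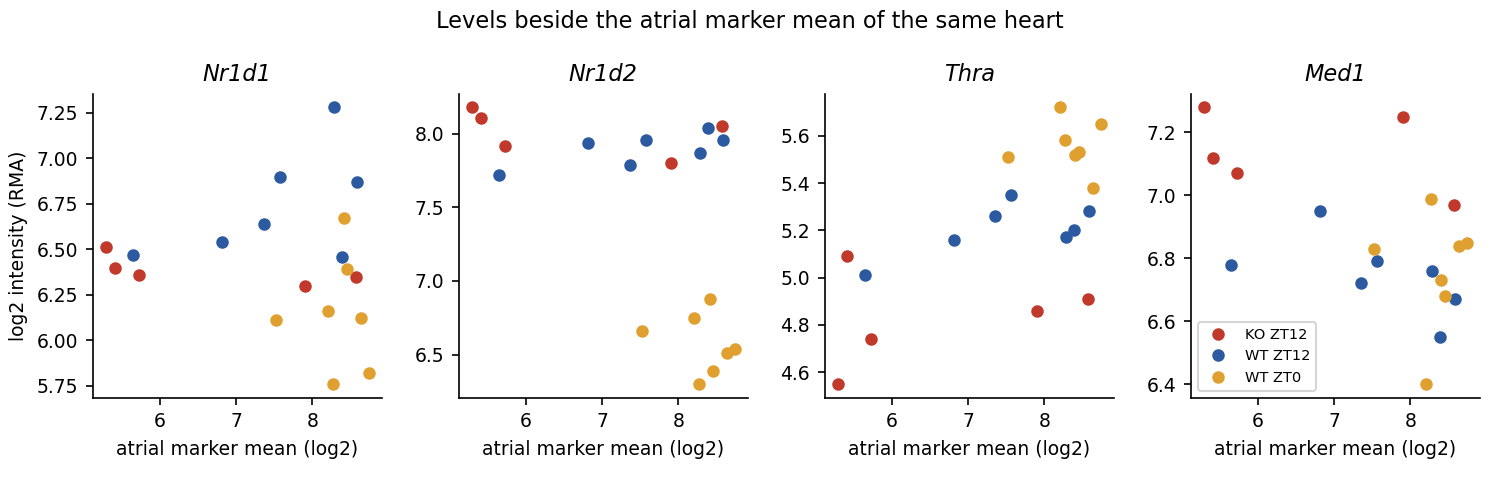
Log2 intensity of each of the 4 genes (vertical axes) beside the mean log2 intensity of 9 atrial marker genes in the same heart (horizontal axes), coloured by group. The 4 hearts at the left, 3 of KO ZT12 and 1 of WT ZT12, have atrial means of 5.29 to 5.73. Thra in KO ZT12 hearts is 4.55 to 5.09 at the left and 4.86 to 4.91 in the others. The WT ZT12 heart at the left has Thra at 5.01. Med1 in KO ZT12 hearts is 7.07 to 7.28 at the left and 6.97 to 7.25 in the others.

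Genes around Nr1d1 on chromosome 11 were examined next, to see whether the differences of Thra and Med1 between the genotypes were shared along the locus. Thra is the nearest measured gene and Med1 lies 21 measured genes away on the same side. Calls rest on limma, with Benjamini-Hochberg adjustment over all 22180 genes and a threshold of 0.05. Between KO ZT12 and WT ZT12 hearts 0 of the 40 nearest measured genes (20 on each side, without Thra and Med1) were called, against 0.730% of all genes, and 2 had an unadjusted p under 0.05, against 10.6% of all genes. Their differences had a median of 0.034 and ran from -0.34 to 0.28, with 27 positive and 13 negative. Of the next 160 genes 0 were called, with 8 at an unadjusted p under 0.05, and 8 of the remaining 1305 genes of the chromosome were called, 0.613%.

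Between WT ZT12 and WT ZT0 hearts 1 of the 40 neighbours was called, against 1.13% of all genes, and it rose. This was Tcap, which encodes the sarcomeric titin cap, telethonin. Tcap averaged 9.99 ± 0.069 (SD, n = 7) in WT ZT12 hearts and 8.81 ± 0.22 (SD, n = 7) in WT ZT0 hearts, a difference of 1.18 (SE 0.080, limma adjusted p 5.72e-09). In KO ZT12 hearts it averaged 10.27 ± 0.084 (SD, n = 5), 0.28 above WT ZT12 (SE 0.088); the groups did not overlap, but the adjusted p of 0.179 did not pass. The other 39 neighbours were not called, and 5 of the 40 had an unadjusted p under 0.05, against 11.5% of all genes. Counts this near the shares over all genes set the neighbours apart in neither comparison.

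The nearest neighbours on the Thra side were Med24, which encodes another Mediator subunit, Csf3, the gene of granulocyte colony-stimulating factor, and Psmd3, of the proteasome. Med24 averaged 6.01 in KO ZT12, 6.16 in WT ZT12 and 6.30 in WT ZT0 hearts. Its differences of -0.15 (SE 0.078, adjusted p 0.518) between the genotypes and -0.14 (SE 0.071, adjusted p 0.481) between the times had the signs of those of Thra but did not pass. Between the genotypes Csf3 differed by 0.026 (SE 0.11) and Psmd3 by 0.0014 (SE 0.072), and between the times by 0.086 (SE 0.097) and -0.036 (SE 0.066). On the other side of Nr1d1 lie Msl1, a subunit of a histone acetyltransferase complex, Rapgefl1 and Wipf2. Genotype differences were 0.023 (SE 0.090) for Msl1, 0.13 (SE 0.10) for Rapgefl1 and 0.068 (SE 0.076) for Wipf2, and time differences were -0.19 (SE 0.082), -0.23 (SE 0.095) and 0.017 (SE 0.069). None of these 6 passed in either comparison.

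**Figure D3:**
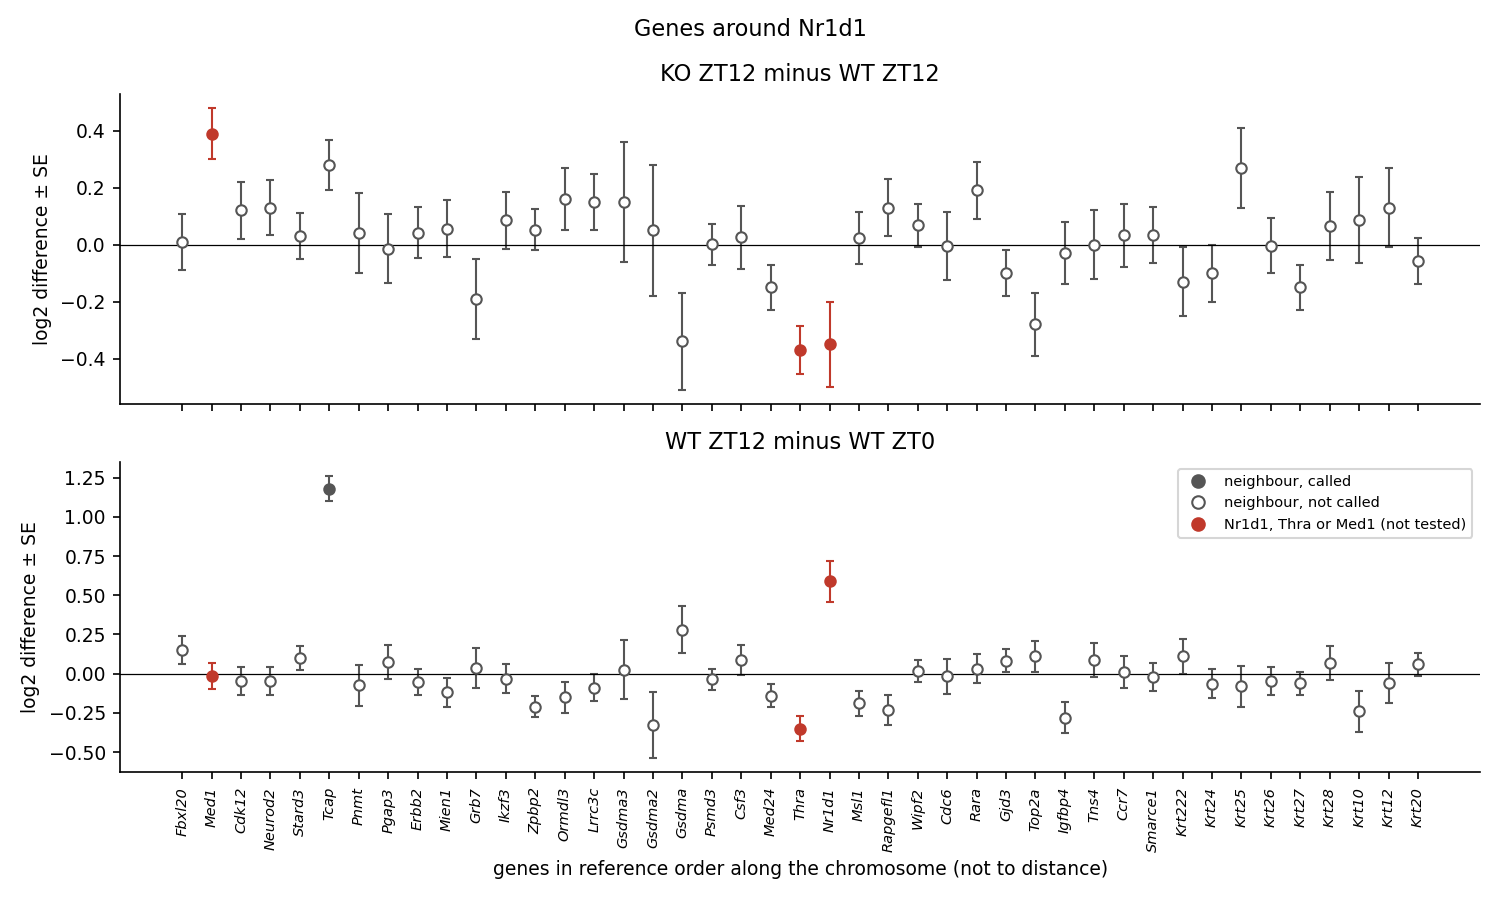
Log2 differences (vertical axes, with SE) of Nr1d1, Thra, Med1 and the 40 nearest measured genes, in reference gene order along the chromosome (horizontal axis, not to distance). Between KO ZT12 and WT ZT12 (upper panel) 0 of the neighbours are called, and between WT ZT12 and WT ZT0 (lower panel) 1 is, Tcap at 1.18.

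Some genes that REV-ERB proteins repress rose in the knockout and some fell at ZT12. This gene list and those below were chosen with earlier results of these hearts known. Their shares beside those of all genes are thus descriptions, and no list was tested as a set. Of 14 measured genes of a list of 15, 5 rose between KO ZT12 and WT ZT12 hearts and 0 fell, 35.7% against 0.442% of all genes higher and 0.289% lower, with a median of 0.27 against -0.0030 over all genes. Arntl, which encodes the clock activator BMAL1, averaged 6.54 in KO ZT12, 4.08 in WT ZT12 and 7.27 in WT ZT0 hearts. Its genotype difference was 2.45 (SE 0.099, adjusted p 1.24e-12) and its time difference -3.18 (SE 0.091, adjusted p 9.25e-16). Clock, its partner, rose by 0.64 (SE 0.062, adjusted p 4.77e-06), and Npas2, a relative of Clock, by 0.96 (SE 0.15, adjusted p 0.00170). The other called genes were Fabp7, of a fatty acid binding protein, at 0.88 (SE 0.16, adjusted p 0.00822) and Pdk4, of a kinase that restrains pyruvate oxidation, which averaged 10.42 in KO ZT12 and 9.42 in WT ZT12 hearts (SE of the difference 0.21, adjusted p 0.0223); these were named after their values were seen. Without the 4 arrays low in atrial markers 3 of the 14 were called, with an adjusted p of 0.105 for Npas2 and 0.442 for Pdk4. That setting compares only 2 KO ZT12 with 6 WT ZT12 hearts. Pdk4 was also lost when either of KO ZT12 replicates 4 and 5 was left out. The cytokine genes Il6 and Ccl2, also on the list and named after their values were seen, had differences of -1.18 (adjusted p 0.259) and -0.79 (adjusted p 0.176) and did not pass.

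Between WT ZT12 and WT ZT0 hearts 5 of the same 14 genes fell and 0 rose, against 0.482% of all genes lower, with a median of -0.25 against -0.0035 over all genes. Clock fell by 0.73 (SE 0.056, adjusted p 4.68e-08) and Npas2 fell by 1.45 (SE 0.13, adjusted p 8.23e-07). Fabp7 and Nfil3, a repressor of D-box genes, also fell, by 0.74 and 0.72; both were named after their values were seen.

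Clock genes driven through E-boxes or D-boxes, the class to which both Rev-erb genes belong, rose at ZT12 and were not called between the genotypes. Of 11 measured genes of a list of 12, 10 rose between WT ZT12 and WT ZT0 hearts and 0 fell, against 0.645% of all genes higher, with a median of 0.79. The groups of all 11 did not overlap, against 0.902% of all genes. Dbp, a D-box activator, averaged 8.29 in KO ZT12, 8.09 in WT ZT12 and 5.56 in WT ZT0 hearts, with a time difference of 2.52 (SE 0.11, adjusted p 1.96e-12). The clock repressor gene Per3 rose by 1.63 (SE 0.098, adjusted p 1.16e-09) and Usp2, of a deubiquitinase, by 0.74 (SE 0.067, adjusted p 7.02e-07). Between the genotypes 0 of the 11 were called in limma, with 2 at an unadjusted p under 0.05, and differences ran from -0.13 to 0.25. The smallest p-values were those of Bhlhe41 at 0.23 (SE 0.086, adjusted p 0.309) and Tef at 0.21 (SE 0.098, adjusted p 0.470). The difference of Nr1d2 between the genotypes, 0.11, lay inside that range, and that of Nr1d1, -0.35, below it.

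Partners and regulators of REV-ERB proteins came next. The list holds subunits of the corepressor, the competing ROR receptors, and enzymes that modify or degrade REV-ERB alpha or make heme. Of 12 measured genes of 15, 0 were called in either comparison, with 0 at an unadjusted p under 0.05 between the genotypes and 2 between the times, and medians of 0.024 and -0.0057. Of all genes 0.730% were called between the genotypes and 1.13% between the times, and 10.6% and 11.5% had an unadjusted p under 0.05, so counts of 0 called are near what the whole array gives. Rora, of a ROR receptor, differed by 0.21 (SE 0.067, adjusted p 0.169) between WT ZT12 and WT ZT0. Fbxw7, of a ubiquitin ligase subunit that targets REV-ERB alpha, differed by -0.23 (SE 0.086, adjusted p 0.287) between the times and by 0.16 (SE 0.094, adjusted p 0.582) between the genotypes. Tbl1x, of the corepressor, had 0.11 (SE 0.069, adjusted p 0.615) between the genotypes.

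Genes that act with Thra were set beside it. Of 15 measured genes for thyroid hormone receptors, their RXR partners, deiodinases, transporters and coactivators, out of 16 listed, 0 were called in either comparison. At an unadjusted p under 0.05 there were 2 between the genotypes and 4 between the times, with medians of 0.069 and -0.052. The counts of 0 called are near the shares over all genes, 0.730% and 1.13%. Of all genes 10.6% and 11.5% had an unadjusted p under 0.05. Thrb, the other thyroid hormone receptor gene, averaged 6.39 in KO ZT12, 6.16 in WT ZT12 and 6.06 in WT ZT0 hearts. Its genotype difference of 0.23 (SE 0.094, adjusted p 0.370) did not pass, and nor did that of Rxrg, of an RXR, at 0.23 (SE 0.11, adjusted p 0.428). The coactivator genes Ncoa3 and Ncoa1 had time differences of 0.17 (SE 0.064, adjusted p 0.287) and -0.19 (SE 0.078, adjusted p 0.324).

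Among 17 measured genes of 20 that respond to thyroid hormone, 0 were called between KO ZT12 and WT ZT12, with 5 at an unadjusted p under 0.05, a median of 0.028 and a range from -0.49 to 0.96. Over all genes 0.730% were called and 10.6% had such a p. Hcn2, of a pacemaker channel, averaged 4.47 in KO ZT12 and 4.94 in WT ZT12 hearts, a difference of -0.47 (SE 0.11, adjusted p 0.0508). Ryr2, of the calcium release channel, averaged 10.98 in KO ZT12 and 10.77 in WT ZT12 hearts, a difference of 0.21 (SE 0.059, adjusted p 0.106). For both genes the groups did not overlap, as for 1.40% of all genes. Hcn2 was called when KO ZT12 replicate 2 was left out (adjusted p 0.0214), and when WT ZT0 replicate 1 (0.0469) or replicate 2 (0.0490) was. Between WT ZT12 and WT ZT0 1 of the 17 was called, against 1.13% of all genes: Klf9, of a transcription factor that glucocorticoids also induce, rose by 0.46 (SE 0.071, adjusted p 8.88e-04) and averaged 8.39 in KO ZT12, 8.24 in WT ZT12 and 7.78 in WT ZT0 hearts.

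The other Mediator subunits were set beside Med1, whose own difference was not tested. All 32 listed genes were measured and 0 were called in either comparison, with 1 at an unadjusted p under 0.05 between the genotypes and 3 between the times. Over all genes 0.730% and 1.13% were called and 10.6% and 11.5% had such a p, so 0 of 32 is near the share over all genes. The medians of the 32 were 0.044 and 0.0089. The genotype differences ran from -0.15 to 0.30, so that of Med1, 0.39, lay above all 32; it was not set against them in a test. Med27 had 0.30 (SE 0.12, adjusted p 0.358) and Med25 0.19 (SE 0.097, adjusted p 0.498). Between the times Cdk19, of a Mediator kinase, differed by 0.32 (SE 0.083, adjusted p 0.0667) and Ccnc, of its cyclin, by 0.26 (SE 0.097, adjusted p 0.280). Cdk19 was called without WT ZT0 replicate 2 (adjusted p 0.0172) or WT ZT12 replicate 5 (0.0413).

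**Figure D4:**
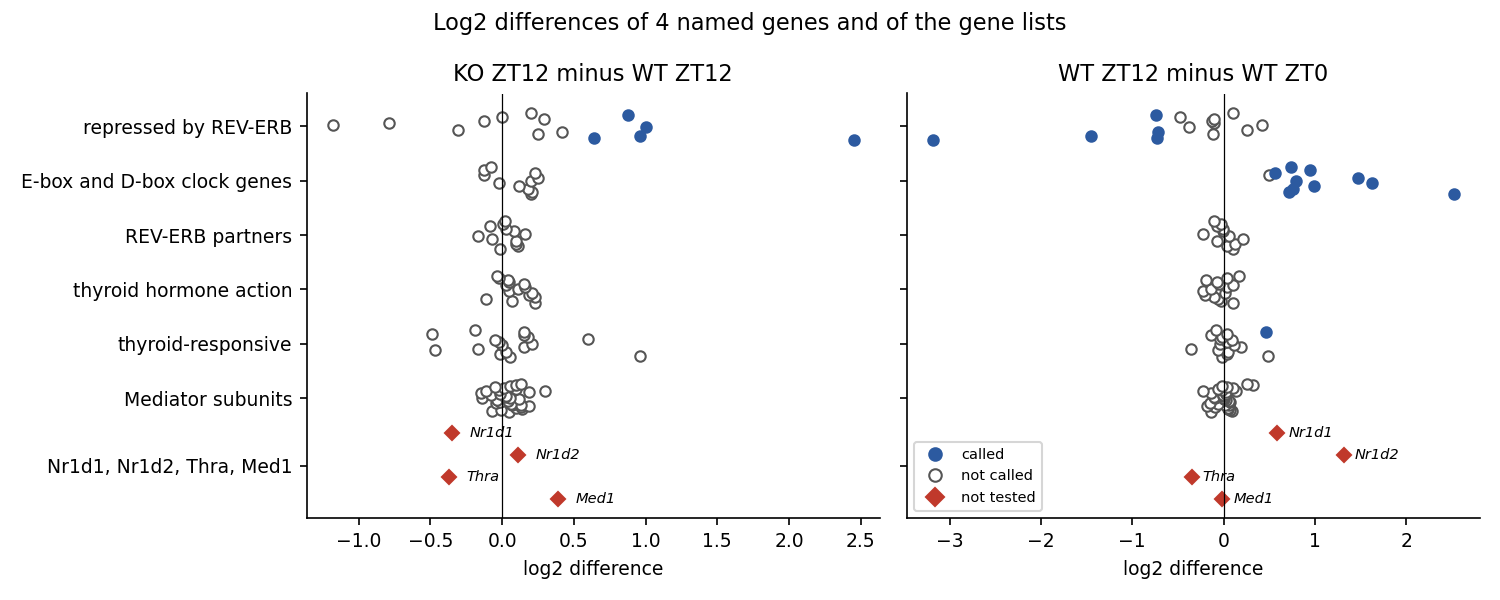
Log2 differences (horizontal axes) of the genes of 6 lists and of Nr1d1, Nr1d2, Thra and Med1 (rows), for KO ZT12 minus WT ZT12 on the left and WT ZT12 minus WT ZT0 on the right. Filled circles passed the adjusted p, open circles did not, and diamonds were not tested; 5 genes repressed by REV-ERB rose in the knockout and 10 E-box or D-box genes rose at ZT12.

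The genes most like each of the 4 were found by the root mean square difference between log2 profiles over the 19 hearts, each centred on its own mean. Nr1d2, whose SD over hearts was 0.70, was nearest to Tcap at 0.18, then Per3 at 0.23 and Klhl38 at 0.27. The profile of Tcap, on the Nr1d1 chromosome, thus lay nearer to that of Nr1d2 than to that of its neighbour Nr1d1. Thra, with an SD of 0.32, was nearest to Ppp1r3c, of a glycogen-targeting phosphatase subunit, to the zinc transporter gene Slc39a10 and to Plat, of tissue plasminogen activator, each at 0.18. Ppp1r3c averaged 8.21 in KO ZT12, 8.35 in WT ZT12 and 8.84 in WT ZT0 hearts. Med1, with an SD of 0.22, was nearest to Nt5e, of an enzyme that makes adenosine, at 0.11, and to Tacc2 and Uqcc3 at 0.12. Nt5e averaged 6.10 in KO ZT12, 5.71 in WT ZT12 and 5.72 in WT ZT0 hearts, and Tacc2 averaged 8.98 in KO ZT12, 8.54 in WT ZT12 and 8.60 in WT ZT0 hearts. Nr1d1 had the loosest matches for its SD of 0.36: Smtnl2 and Npc1 at 0.23 and Lgi1 at 0.24.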

How the data were processed

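The authors deposited 1 table of log2 probe set intensities for the 19 arrays, summarised with RMA per the submitters' processing notes; RMA corrects background, normalizes quantiles and summarises probes, so values are relative between arrays. The log2 scale was taken from the values, 0.21 to 12.88; the build and probe annotation used upstream: not given in the sources used here.

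Of 41345 probe sets, 23521 list 1 gene in the platform annotation, 1814 several and 16010 none; the last 2 kinds were left out. For the 1082 genes with more than 1 probe set the brightest was used, leaving 22180 genes. The model was fitted in limma 3.58.1 (R 4.3.3), with 1 mean per group over all 19 arrays, eBayes without trend, two-sided tests and Benjamini-Hochberg adjustment over all genes; a call is an adjusted p under 0.05.

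The 4 genes and the gene lists were chosen with earlier results of these data known. Genes named are the 4, the 3 nearest measured neighbours on each side and called neighbours, up to 3 called genes per list and comparison or else the 2 of smallest p, and the 3 nearest profiles; others are said to be named after their values were seen. Some list genes are not reported here. Neighbours were taken from the gene order of a RefSeq table of GRCm38.p6. The labels call replicates biological. No 2 arrays of a group were copies: the smallest SD of their differences over genes was 0.261. The alternatives tried were other probe set rules, centring, normalization, an intensity trend, a Bmp10 covariate, the replicate block and leaving out arrays.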

Additional observations from a re-analysis of the deposited data

Results flagged for a closer look

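Wipf2, a neighbour of Nr1d1 whose protein regulates actin, was flagged for a single heart. WT ZT12 replicate 4 had a log2 level of 4.55, while the other 6 WT ZT12 hearts had 4.89 to 5.07, a gap of 0.65 of the group's range against a limit of 0.568. This was the only flag among 30 sets of values (10 genes in 3 groups), and chance flags about 1 set in 20.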

How the results depend on the processing

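The differences of Nr1d1, Thra and Med1 between KO ZT12 and WT ZT12 kept their signs in 9 other settings and when each of the 19 arrays was left out: -0.40 to -0.26 for Nr1d1, -0.44 to -0.30 for Thra and 0.36 to 0.43 for Med1 over the left-out arrays. That of Nr1d2 ran from 0.071 to 0.17, and its sign turned only without the 4 arrays low in atrial markers, an alternative chosen after seeing the data. The count of all genes called between KO ZT12 and WT ZT12, 162, was 72 with only the arrays compared, 264 without dim probe sets, 267 with an intensity trend, 19 without those 4 arrays and 94 to 161 with 1 array left out, lowest without KO ZT12 replicate 5; it was 105 without WT ZT12 replicate 2 or 4, and 100, 107 and 98 without KO ZT12 replicate 2, 3 and 4. Between WT ZT12 and WT ZT0 the count was 250, against 384 without dim probe sets and 359 with an intensity trend. It was 171 with the replicate block and 185 to 269 with 1 array left out. Genes repressed by REV-ERB called between the genotypes were 3 without those 4 arrays and 4 to 7 with 1 array left out. The 7 were without KO ZT12 replicate 1, where Il6 (-1.64, adjusted p 0.0314) and Ccl2 (-1.07, adjusted p 0.0150) were called. Thyroid-responsive genes called between the genotypes were 2 without dim probe sets or with a trend, Hcn2 and Ryr2, and 0 to 1 with 1 array left out. Mediator genes called between the times were 1 without dim probe sets or with a trend, and 0 to 1 with 1 array left out. Pdk4 lost its call in 5 settings (adjusted p 0.0544 to 0.442), and Tef between the times with the mean of probe sets (0.0788), while Arntl, Clock and Fabp7 kept theirs. The cause of these moves was not tested. Without the 4 arrays low in atrial markers only 2 KO ZT12 and 6 WT ZT12 hearts were compared, so fewer hearts and atrial content cannot be told apart there. Replicate numbers showed no sign of pairing hearts over all genes, but whether same-numbered hearts shared a day or batch is not known. The correlation of same-numbered deviations lay between -0.072 and 0.074, with 0 pairs over 0.1. In the 3 pairs of groups 1 of 7, 0 of 5 and 0 of 5 samples matched their own number best. With the replicate block 88 genes were called between KO ZT12 and WT ZT12.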

Other observations

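Genes of endoplasmic reticulum chaperones stood next in order of likeness to Thra, after the 3 nearest; they were named after their values were seen. Hspa5, of the chaperone BiP, had a root mean square difference of 0.19 from Thra and averaged 7.65 in KO ZT12, 7.81 in WT ZT12 and 8.12 in WT ZT0 hearts. Dnajc3, of a co-chaperone, had 0.20 and averaged 7.36 in KO ZT12, 7.44 in WT ZT12 and 7.77 in WT ZT0 hearts. Next to Nr1d2 after its 3 nearest came the clock gene Per1 and the transcription factor gene Zbtb16, each at 0.29, also named after their values were seen. Zbtb16 averaged 8.70 in KO ZT12, 8.25 in WT ZT12 and 6.77 in WT ZT0 hearts.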
